A study of Mus musculus with 3 samples.

Results

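The cell cycle inhibitors and stress-induced growth regulators described here are 10 mouse genes in 3 families: the Cdk inhibitors Cdkn1a, Cdkn1b, Cdkn1c and Cdkn2c, the growth arrest genes Gadd45a, Gadd45b and Gadd45g, and the sestrins Sesn1, Sesn2 and Sesn3. They were found on the array through the transcript accession of each probe, which gave 11 of 39429 probes, 1 per gene except for Cdkn1a with 2. The array measures 32395 genes in all, counting each transcript without a matched symbol as a gene. All 10 genes were among the 17460 tested, and all were well above the local background in both channels of every array, so none was let in or lost by the filter on dim probes. The samples were RNA from the lower-limb muscle of male C57BL/6 mice, 3 controls and 3 with an inducible deletion of FoxO1 restricted to skeletal muscle (mFoxO1KO). Mice of both groups ate an AIN93G diet with 0.625 g/kg doxycycline between 8 and 14 weeks of age, so the antibiotic was shared by the controls. The promoter that drives the recombination is not given in the sources used here, and neither is the muscle dissected. Each array carried 1 control sample in Cy3 and 1 knockout sample in Cy5 with no dye swap, so a dye effect of a probe and an effect of genotype cannot be told apart.

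Cdk inhibitors hold the cell cycle by binding cyclin-dependent kinases. The Cip/Kip proteins encoded by Cdkn1a (p21), Cdkn1b (p27) and Cdkn1c (p57) bind several cyclin-Cdk complexes, and the INK4 protein encoded by Cdkn2c (p18) binds Cdk4 and Cdk6. In muscle they are known for keeping myonuclei out of the cell cycle and for the withdrawal of myoblasts at differentiation. Gadd45 proteins are small stress-induced proteins that activate the kinase MAP3K4 and take part in DNA demethylation and repair, and Gadd45a is known to be induced in denervated and fasted muscle. Sestrins are leucine- and stress-responsive proteins that restrain mTORC1 through the GATOR complexes. FoxO factors are known to activate several of these genes in other cells, among them Cdkn1b, Gadd45a and Sesn3.

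The arrays shared 1 slide and 1 scan day. Median spot signals were 90.5 to 97 in the control channel and 99 to 102 in the knockout channel, against local backgrounds of 35.5 to 38 and 50.5 to 52. Foxo1 itself, by its brighter probe, had log2 ratios of knockout over control of -1.50, -2.42 and -2.27 (limma, adjusted p = 0.0278), and by its second probe a mean of -1.39 ± 0.61 (SD, n = 3). The sources used here do not say which exons were deleted, so the position of these probes relative to the deletion is unknown. The skeletal muscle fibre markers were bright, with 10 of 11 measured markers above background on all control arrays and summed log2 levels of 19.63 to 19.75 in control and 19.72 to 19.75 in knockout samples. Of 11 tested fibre markers 6 had means above 0. The sums are set by the brightest markers. The myosin genes Myh2 and Myh7 had ratios of -1.69, -0.34 and 1.36, and of -0.80, -0.05 and -0.56, on arrays 1, 2 and 3. Adipocyte markers differed between channels: 11 of 13 were above background on all arrays of both groups and all 11 had mean ratios above 0, with medians of 2.94, 0.22 and 1.80 on the 3 arrays and summed log2 levels of 15.59 to 16.66 in control and 16.81 to 17.80 in knockout samples. Lep, the leptin gene, was not above background in either channel. Neutrophil sums did not overlap either, at 9.12 to 9.41 in control and 9.42 to 10.5 in knockout samples, with 2 of 8 markers tested, both with means above 0, and Ngp and Mpo not above background. By the brightest probe of each, 0 of 7 neutrophil markers were above background on all control arrays, and 1 was on all knockout arrays. The control sums are thus made of dim probes, and the gap between the groups is narrow. Macrophage sums overlapped, at 12.49 to 12.91 and 12.71 to 13.09, and all 6 tested markers of 8 had means above 0. Means above 0 were also found for 8 of 9 endothelial, 7 of 8 fibroblast and 6 of 7 Schwann cell markers tested. For satellite cell and myoblast markers the count was 5 of 7, and for smooth muscle and pericyte markers 2 of 6. No cell type marker passed the test. In such bulk tissue, fewer cells of a type and less RNA per cell cannot be told apart.

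Of the 10 genes, Cdkn1a rose in the knockout muscle and none fell at an adjusted p under 0.05 (limma, Benjamini-Hochberg over all 17460 genes). The remaining 9 missed it. Among all tested genes 2.75% were called, 359 higher (2.06%) and 122 lower (0.699%), a split that became 1153 higher and 51 lower with median centring in place of loess. The median log2 ratio of the 10 was -0.16 against 0.01 for all genes, and 8 of the 10 means lay below 0. That count was 4 with median centring, which moved the median of all genes to 0.16 and that of the 10 to 0.03. An unadjusted p under 0.05 was found for 4 of the 10, against 26.8% of all genes. One sign on all 3 arrays was found for 6 of the 10 against 52.4% of all genes, and levels that did not overlap between the genotypes for 2 of the 10 against 25.8%. With 10 genes these counts do not set the group apart from the rest of the array.

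**Figure D1:**
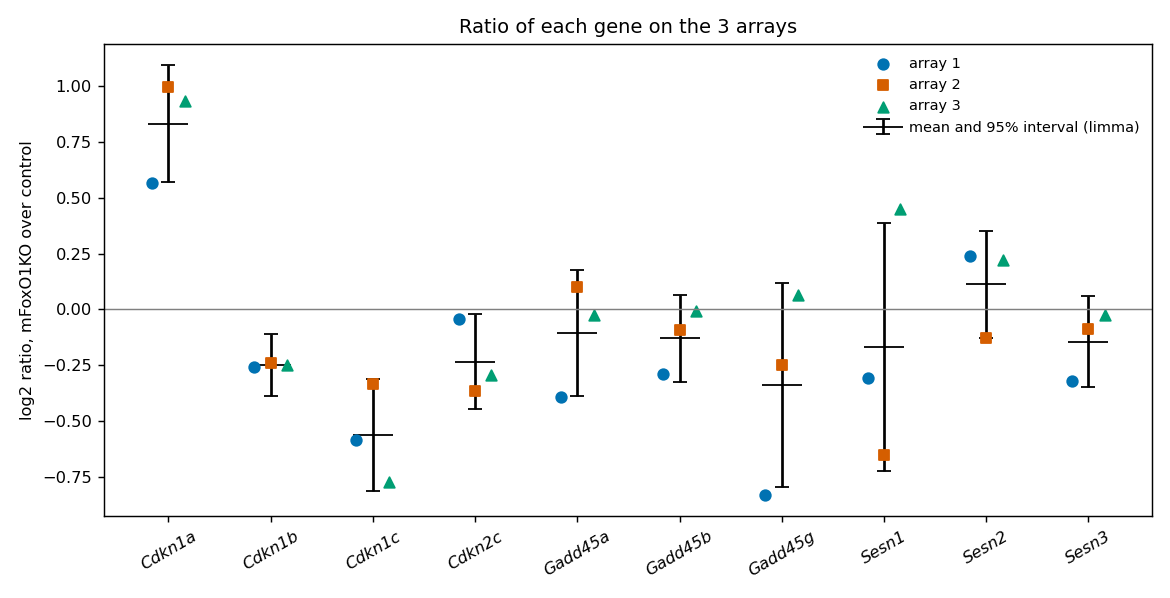
Log2 ratio of mFoxO1KO over control (vertical axis) for each of the 10 genes, with 1 coloured symbol per array, a black bar at the mean and whiskers for limma's 95% interval. Cdkn1a lies above 0 on every array, Cdkn1b, Cdkn1c, Cdkn2c, Gadd45b and Sesn3 lie below 0 on every array, and the other 4 genes have both signs.

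Cdkn1a encodes p21, the p53-induced inhibitor of cyclin-Cdk complexes. Its normalised log2 levels in the control samples were 9.50, 9.74 and 9.86 on arrays 1, 2 and 3, and in the knockout samples of the same arrays 10.07, 10.74 and 10.79. All 3 knockout levels lay above all 3 control levels, and array 1 had the lowest level of both groups. The log2 ratios were 0.57, 1.00 and 0.93, a mean of 0.83 ± 0.23 (SD, n = 3 arrays) or 1.78-fold (limma, adjusted p = 0.0401, 95% interval 0.57 to 1.09). The gene ranked 203 of 17460 by p. Its ratio lay above that of each of the 9 other genes on every array.

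The Cdkn1a probe was printed as 10 spots per array, which gives a measure of the technical spread. All spots used, 9 on array 1 and 10 on each of the others, had ratios above 0. They ranged from 0.48 to 0.63 on array 1, from 0.91 to 1.06 on array 2 and from 0.87 to 0.97 on array 3, with SDs of 0.053, 0.042 and 0.031. The spread between the arrays was thus wider than that between spots of 1 array, and array 1 did not overlap the other two.

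**Figure D2:**
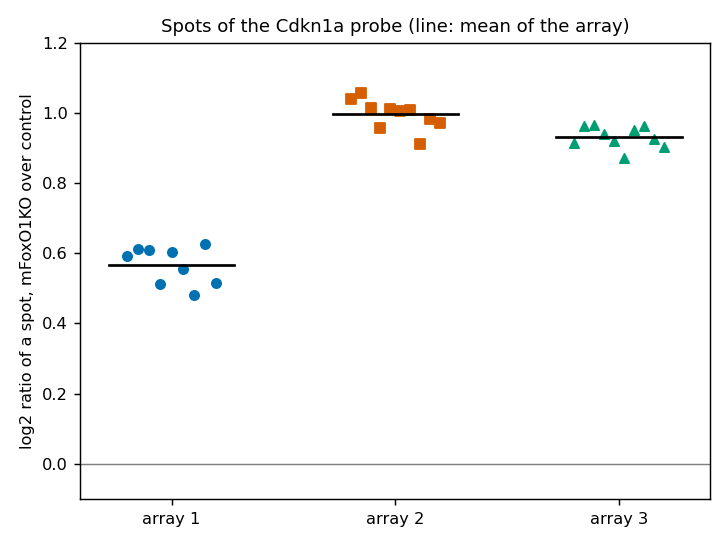
Log2 ratio of mFoxO1KO over control (vertical axis) for each spot of the Cdkn1a probe on the 3 arrays (horizontal axis), with a line at the array's mean. The spots of array 1 lie between 0.48 and 0.63 and those of arrays 2 and 3 between 0.87 and 1.06.

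The second Cdkn1a probe, designed for the transcript NM_001111099, was not well above background in either channel of any array. Its control signals were 70, 68.5 and 72 over backgrounds of 34 to 36, and its knockout signals 67, 59.5 and 57 over backgrounds of 43.5 to 53.5. The probe that rose was designed for NM_007669. The dim probe gives no ratio, and which transcripts each probe detects was not analysed here.

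The Cdkn1a call was close to the threshold. The adjusted p was 0.157 without replicate 2 (ratio 0.75), 0.0767 without replicate 3 (ratio 0.78) and 0.0210 without replicate 1 (ratio 0.96). It was 0.0749 with the deposited log ratios (0.86), 0.0533 under a filter that asks for detection in both channels (0.83) and 0.105 in a fit of the channels without the array pairing (0.83). The ratio was above 0 under all 15 alternatives, from 0.75 to 1.03. The adipocyte medians were 2.94 on array 1, where the Cdkn1a ratio was lowest at 0.57, and 0.22 on array 2, where it was highest at 1.00. The macrophage medians of -0.05, 0.34 and 0.44 on arrays 1, 2 and 3 were lowest on array 1, as was the Cdkn1a ratio. The neutrophil medians of 0.56, 1.32 and 0.38 were highest on array 2, as was the Cdkn1a ratio. They rest on 2 markers, S100a9 and Camp, with low mean control log2 levels of 6.81 and 6.46. The satellite cell and myoblast medians were 0.20, 0.43 and -0.19, also highest on array 2 but lowest on array 3. The part of these cell types in the Cdkn1a ratio was not tested. The named genes whose 3 ratios were nearest to those of Cdkn1a, by root mean square difference among 12994, were Nr4a1 (0.084), Prg4 (0.099) and Ralyl (0.12).

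The RefSeq table of sequences before gene starts (GRCm38.p6) held 2 windows for Cdkn1a, 2790 bases apart, and 12 windows for 9 of the 10 genes. No window of Cdkn1c was in the table. Each window printed here is the 250 bases before a start, 5′ to 3′ on the gene's strand, with matches to the motifs searched in capitals. The Cdkn1a windows are shown because this gene rose. The Gadd45b and Gadd45g windows are shown because they share 3 motifs.
Cdkn1a, upstream start, chr17:29090729-29090978, plus strand: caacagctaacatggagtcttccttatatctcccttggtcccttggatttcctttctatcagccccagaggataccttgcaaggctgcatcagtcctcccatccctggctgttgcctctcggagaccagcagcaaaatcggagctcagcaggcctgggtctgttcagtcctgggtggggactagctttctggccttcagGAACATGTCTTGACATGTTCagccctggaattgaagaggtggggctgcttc
Cdkn1a, downstream start, chr17:29093519-29093768, plus strand: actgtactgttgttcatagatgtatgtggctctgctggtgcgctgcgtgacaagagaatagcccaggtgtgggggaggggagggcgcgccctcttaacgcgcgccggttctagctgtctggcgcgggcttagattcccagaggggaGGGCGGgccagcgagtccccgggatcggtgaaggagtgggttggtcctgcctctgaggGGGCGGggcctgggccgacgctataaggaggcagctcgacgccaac
Gadd45b, chr10:80929841-80930090, plus strand: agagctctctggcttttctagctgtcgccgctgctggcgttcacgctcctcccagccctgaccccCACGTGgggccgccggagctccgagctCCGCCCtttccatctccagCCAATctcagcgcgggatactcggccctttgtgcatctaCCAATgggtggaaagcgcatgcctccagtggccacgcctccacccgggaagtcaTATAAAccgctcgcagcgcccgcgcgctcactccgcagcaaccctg
Gadd45g, chr13:51846425-51846674, plus strand: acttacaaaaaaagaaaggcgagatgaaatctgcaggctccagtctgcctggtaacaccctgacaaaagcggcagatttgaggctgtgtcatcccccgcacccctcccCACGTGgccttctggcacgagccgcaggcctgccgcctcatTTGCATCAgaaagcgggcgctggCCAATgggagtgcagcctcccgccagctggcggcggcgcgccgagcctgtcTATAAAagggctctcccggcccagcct

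The motifs were searched on both strands. The window before the upstream Cdkn1a start held a p53 element, a pair of adjoining 10-letter half-sites with at most 1 mismatch to the consensus, between 51 and 32 bases before that start (positions -51 to -32). Such an element was present in 25 of 32851 windows of all genes (0.0761%), and in none of the other 11 windows here. The FoxO motifs GTAAACA and CAAAACA were in 0 of the 12 windows, against 3.17% and 5.56% of all windows. The GC box GGGCGG was in 9 of the 12 windows against 32.7%, and CCAAT in 8 against 33.8%. The windows here held 42.8% to 77.2% G and C, against a median of 52.4% over all windows. Only a Cdkn2c window, at 42.8%, lay below that median. The part of base composition in the motif counts was not tested. Gadd45b and Gadd45g both held CACGTG (6.02% of all windows), TATAAA (12.4%) and CCAAT, and Gadd45g also the ATF4 motif TGATGNAA (3.45%). The motifs TGANTCA (6.75%) and TGACGTCA (1.55%) were in none of the 12. These letters describe the windows and do not show binding.

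Cdkn1b encodes p27, a Cdk inhibitor of quiescent cells. Its log2 levels were 12.05, 12.11 and 11.86 in control samples and 11.79, 11.87 and 11.61 in knockout samples. Each knockout level lay below the control level of its own array, but the 2 groups overlapped. The ratios were nearly the same on the 3 arrays, at -0.26, -0.24 and -0.25, with a mean of -0.25 ± 0.009 (SD, n = 3), or 84.2% of control, and an adjusted p of 0.0795 (limma, 95% interval -0.39 to -0.11). With median centring in place of loess the ratio was -0.03 (adjusted p = 0.944). Its spot signals as scanned were 3232, 3535 and 2859.5 in Cy3 and 4466, 4459 and 4322 in Cy5. Before dye correction Cy5 was thus the brighter channel on every array.

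Cdkn1c encodes p57, an imprinted Cdk inhibitor of differentiating cells. Its log2 levels were 11.39, 11.30 and 11.61 in control samples and 10.80, 10.96 and 10.83 in knockout samples. All 3 knockout levels lay below all 3 control levels after normalisation. The spot signals as scanned were 2020, 2059.5 and 2415 in Cy3 and 2218, 2366.5 and 2505 in Cy5. Before dye correction Cy5 was thus the brighter channel on every array. The ratios of -0.58, -0.34 and -0.77 gave the lowest mean of the 10 genes, -0.56 ± 0.22 (SD, n = 3) or 67.6% of control, which missed the threshold (limma, adjusted p = 0.0567, 95% interval -0.81 to -0.31). It passed in 3 of 15 alternatives, at an adjusted p of 0.0488 with the scanner software's processed signals after median centring, 0.0475 with no filter on dim probes and 0.0483 with an intensity trend together with a robust variance. With median centring in place of loess it was -0.35 (adjusted p = 0.169). It did not pass with any array left out (0.0978, 0.142 and 0.110).

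Cdkn2c encodes p18, an INK4 inhibitor of Cdk4 and Cdk6. Its log2 levels were 9.16, 9.27 and 9.48 in control samples and 9.12, 8.90 and 9.19 in knockout samples. The groups overlapped, and array 1 showed almost no difference. The ratios were -0.04, -0.37 and -0.29, with a mean of -0.23 ± 0.17 (SD, n = 3, limma adjusted p = 0.162, 95% interval -0.45 to -0.02). With median centring in place of loess the mean was -0.04 (adjusted p = 0.911). The spot signals of Cdkn2c as scanned were 430.5, 522 and 551 in Cy3 and 672, 552 and 743 in Cy5, before dye correction. The Cip/Kip genes had ratios of different sign, with Cdkn1a above and Cdkn1b and Cdkn1c below 0 on every array. The difference between Cdkn1a and Cdkn1c was 1.15, 1.33 and 1.70 on the 3 arrays.

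**Figure D3:**
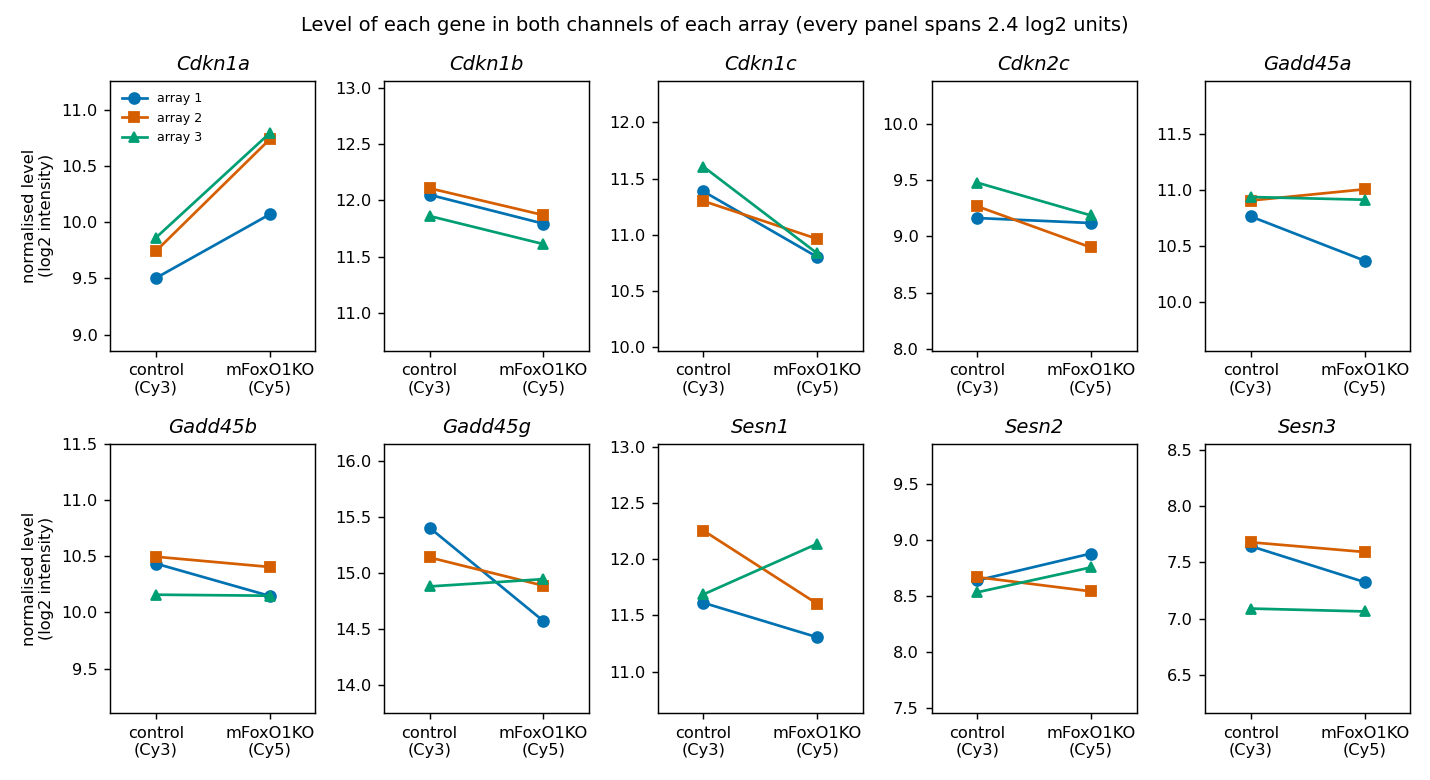
Normalised log2 intensity (vertical axis) of each gene in the control (Cy3) and mFoxO1KO (Cy5) channel, with a line joining the 2 samples of an array. Every panel spans 2.4 log2 units around its own centre, and levels of different genes are not comparable because each has its own probe. The Cdkn1a lines all slope upwards, the Cdkn1b and Cdkn1c lines all slope downwards, and the Sesn1 and Gadd45g lines cross.

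The Gadd45 genes did not pass the test. Gadd45a had log2 levels of 10.76, 10.91 and 10.94 in control samples and 10.37, 11.01 and 10.91 in knockout samples. The groups overlapped, and the ratio of -0.39 on array 1 stood against 0.10 and -0.02 on the others. The mean was -0.11 ± 0.26 (SD, n = 3, limma adjusted p = 0.569, 95% interval -0.39 to 0.18), and it was 0.04 without replicate 1 and 0.10 with median centring in place of loess. The interval leaves room for levels between 76.4% and 113% of control.

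Gadd45b, the family member first found as a myeloid differentiation gene, had log2 levels of 10.43, 10.50 and 10.16 in control samples and 10.15, 10.40 and 10.15 in knockout samples. The groups overlapped. The ratios of -0.29, -0.09 and -0.01 gave a mean of -0.13 ± 0.14 (SD, n = 3, limma adjusted p = 0.329, 95% interval -0.32 to 0.07), which became 0.07 with median centring and -0.05 without replicate 1. Before dye correction its spots were brighter in Cy5 than in Cy3 on every array.

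Gadd45g had the widest spread of the family. Its log2 levels were 15.40, 15.14 and 14.88 in control samples and 14.57, 14.89 and 14.95 in knockout samples. The control level was highest on array 1 and the knockout level lowest there, which gave ratios of -0.83, -0.25 and 0.06. The mean was -0.34 ± 0.45 (SD, n = 3, limma adjusted p = 0.284, 95% interval -0.79 to 0.12). The spot signals as scanned were 32423, 27353 and 22012 in Cy3 and 32140, 38188 and 45078 in Cy5, so before dye correction Cy5 was the brighter channel on arrays 2 and 3. With median centring the mean was 0.00, and without replicate 1 it was -0.09. All 3 Gadd45 genes had their lowest ratio on array 1, the array with the highest adipocyte median. So did Cdkn1a and Sesn3, and by a small margin Cdkn1b (-0.257, -0.239 and -0.250). Cdkn2c and Sesn2 had their highest ratio on array 1, Cdkn1c its lowest on array 3 and Sesn1 its lowest on array 2. The medians of the 10 genes were -0.30, -0.18 and -0.02 on arrays 1, 2 and 3, while the adipocyte median was lowest on array 2. The share of all genes with their lowest ratio on array 1 was not counted. The part of the adipocyte signal in these ratios was not tested.

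The sestrins did not pass the test either, and Sesn1 varied most of all 10 genes. Sesn1, a p53- and FoxO-induced sestrin, had log2 levels of 11.61, 12.26 and 11.69 in control samples and 11.31, 11.60 and 12.14 in knockout samples. The highest level was the control of array 2, followed by the knockout of array 3, and the groups overlapped. The ratios of -0.31, -0.65 and 0.45 gave a mean of -0.17 ± 0.56 (SD, n = 3, limma adjusted p = 0.648, 95% interval -0.73 to 0.39). The mean was -0.48 without replicate 3, 0.07 without replicate 2 and 0.05 with median centring.

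Sesn2, a sestrin induced by ATF4 and oxidative stress, had log2 levels of 8.64, 8.67 and 8.53 in control samples and 8.88, 8.54 and 8.75 in knockout samples. The groups overlapped, with array 2 opposite to the others. The ratios were 0.24, -0.13 and 0.22, with a mean of 0.11 ± 0.21 (SD, n = 3, limma adjusted p = 0.481, 95% interval -0.13 to 0.35). It was 0.29 with median centring, and 0.05, 0.23 and 0.06 without replicates 1, 2 and 3. Apart from Cdkn1a it was the only one of the 10 with a mean above 0.

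Sesn3, which FoxO factors are known to induce, had log2 levels of 7.64, 7.68 and 7.09 in control samples and 7.33, 7.59 and 7.06 in knockout samples. Array 3 was low in both groups, and the groups overlapped. The ratios of -0.32, -0.09 and -0.03 gave a mean of -0.14 ± 0.16 (SD, n = 3, limma adjusted p = 0.302, 95% interval -0.35 to 0.06). It was -0.06 without replicate 1, -0.07 with median centring and -0.35 with the deposited log ratios. Before dye correction the Sesn3 spots were brighter in Cy5 than in Cy3 on every array. Sesn3 and Gadd45b had the most similar ratios of the 45 pairs, with a root mean square difference of 0.021 over the 3 arrays.

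**Figure D4:**
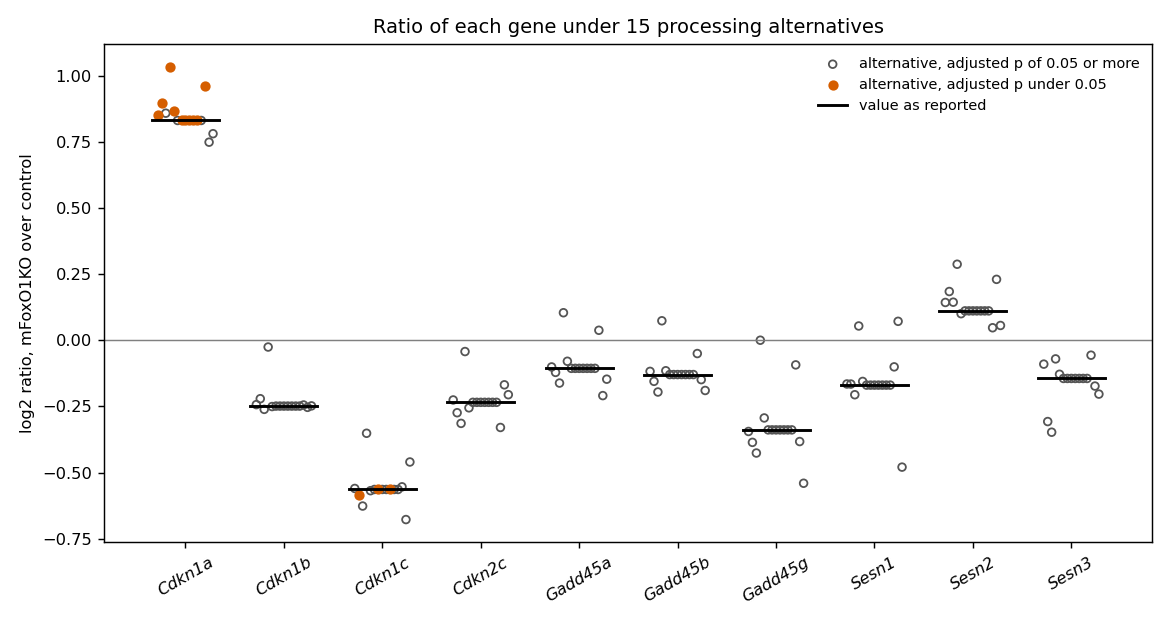
Log2 ratio of mFoxO1KO over control (vertical axis) for each gene under the 15 processing alternatives (circles, filled where the adjusted p was under 0.05) and as reported (black bar). Cdkn1a stays between 0.75 and 1.03 and is called in 10 of the 15, Cdkn1c is called in 3, and Gadd45a, Gadd45b, Gadd45g and Sesn1 reach or cross 0 in at least 1.

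The 10 companion lists of pathway genes held 171 tested genes, of which 8 were called (4.68%, against 2.75% of all genes). An unadjusted p under 0.05 was found for 36.3% of them against 26.8% of all genes, and a mean above 0 for 53.8% against 51.8%, the shares against which the counts of each list are to be read. Of 5 measured relatives of the Cdk inhibitors and pocket proteins, none passed (limma, 3 with an unadjusted p under 0.05). With the scanner software's processed signals 2 were called lower, and with scale normalisation between arrays 1 was. The pocket protein gene Rbl1 had -0.33 ± 0.10, and the INK4 genes Cdkn2a and Cdkn2b had -0.21 ± 0.05 and 0.19 ± 0.09 (adjusted p of 0.0687, 0.108 and 0.149). The second Cdkn2b probe had 0.06 ± 0.08. Of 15 genes for G1 cyclins, Cdks, Rb and E2F factors none passed (limma; 2 at an unadjusted p under 0.05), with a median of -0.04. E2f6, a repressive E2F, had -0.26 ± 0.15 and the cyclin D3 gene Ccnd3 0.17 ± 0.10, with 0.33 ± 0.16 by the second Ccnd3 probe. The cyclin E1 gene Ccne1 had -0.18 ± 0.22, while its second probe had 0.61 ± 0.12 (limma with probes as the unit, adjusted p = 0.0374). Of 16 genes of S phase and mitosis none passed (limma; 2 at an unadjusted p under 0.05), with a median of -0.03. The mitotic kinase gene Aurka had 0.51 ± 0.30, the replication clamp gene Pcna -0.32 ± 0.16 and the cyclin A2 gene Ccna2 -0.13 ± 0.05. The cyclin B1 gene Ccnb1, Cdk1 and Top2a were not tested because they missed the filter on dim probes.

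Among 26 genes of p53 and its targets, 1 was higher and none lower, with a median of 0.05, 15 means above 0 and 10 at an unadjusted p under 0.05. The one that rose was Trp53inp1, a p53-induced nuclear protein gene, at 0.78 ± 0.13 (SD, n = 3, limma adjusted p = 0.0278), with ratios of 0.92, 0.67 and 0.74. Its second probe had 0.43 ± 0.07. The call was lost without replicate 2 and without replicate 3, when 0 of the 26 passed, and 3 passed with median centring.

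The Gadd45 partners, the MAP3K4 kinase cascade to p38 and JNK together with the DNA demethylation genes, had none of 19 past the threshold (limma; 3 at an unadjusted p under 0.05) and a median of 0.01. Map2k6, a kinase of p38, had 0.41 ± 0.11, Tet2, a methylcytosine dioxygenase gene, 0.52 ± 0.34, and Map2k3, also a kinase of p38, 0.21 ± 0.11 (adjusted p of 0.0545, 0.103 and 0.145). The second Tet2 probe had 0.50 ± 0.30. In the sestrin pathway 1 of 32 genes fell and none rose, with a median of -0.01. It was Castor2, a relative of the arginine sensor of mTORC1, at -0.39 ± 0.04 (SD, n = 3, limma adjusted p = 0.0486). The count was 0 without any one replicate and 0 with median centring.

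Among 16 other FoxO targets of arrest, death and quiescence, 2 rose and none fell, with a median of 0.06. Of the 16 means 11 lay above 0, and 7 genes had an unadjusted p under 0.05 (limma). The 2 that rose were Trib1, a pseudokinase gene, at 1.12 ± 0.27 (SD, n = 3, limma adjusted p = 0.0331), and the antiproliferative gene Btg1, at 0.57 ± 0.17 (adjusted p = 0.0492). Their second probes had 0.70 ± 0.20 and 0.26 ± 0.16. Among those not called, Tnfsf10 and Fbxo32 lay below 0 on every array, with means of -0.50 ± 0.31 and -0.72 ± 0.50. The count of called genes was 1, 0 and 1 without replicates 1, 2 and 3. Over all 15 alternatives it ranged from 0 (with the deposited log ratios, for example) to 4 (with median centring). Of 16 ATF4 targets none passed (limma; 10 at an unadjusted p under 0.05), with 13 means above 0 and a median of 0.28, while 2 passed without replicate 1 (1 higher, 1 lower) and 5 with median centring (4 higher, 1 lower). The lipoprotein receptor gene Vldlr had -0.60 ± 0.20, the amino acid transporter gene Slc7a5 0.37 ± 0.08 and the glutathione-degrading enzyme gene Chac1 -1.03 ± 0.46. Second probes had -0.26 ± 0.21 for Vldlr and 0.18 ± 0.12 for Slc7a5. In the glucocorticoid list 2 of 16 rose, the metallothionein gene Mt1 and the lipocalin gene Lcn2, at 2.14 ± 0.35 and 1.14 ± 0.38 (SD, n = 3). The list's median was 0.07, with 8 of 16 means above 0 and 9 genes at an unadjusted p under 0.05 (limma). Klf9, Cebpd and Pdk4 were not called and lay below 0 on every array. Without replicate 1, 4 genes were called higher, without replicate 2, 1 was, and without replicate 3, 2 were called higher and 1 lower. With median centring 7 were called higher, and in the fit with no array pairing none passed. In the denervation list 2 of 11 rose, the ankyrin repeat gene Ankrd1 and the synapse kinase gene Musk, at 1.69 ± 0.37 and 0.96 ± 0.34 (SD, n = 3), and the count was 1 without replicate 2. The list's median was 0.19, with 8 of 11 means above 0 and 6 genes at an unadjusted p under 0.05 (limma). Runx1 was not called, at 0.31 ± 0.15, while its second probe had 0.42 ± 0.04 (limma with probes as the unit, adjusted p = 0.0443). No probe was matched to the listed genes Skp2 and Samtor.

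**Figure D5:**
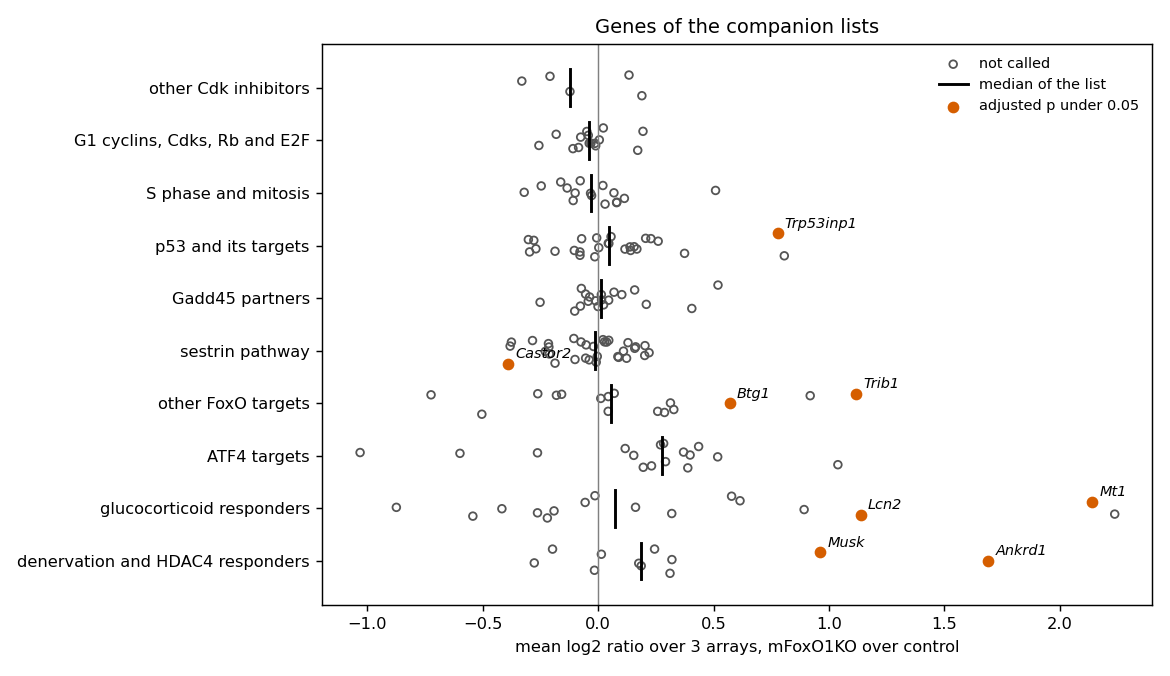
Mean log2 ratio of mFoxO1KO over control (horizontal axis) of each measured gene in the 10 companion lists (rows), with a black line at the list's median and filled symbols with names for genes at an adjusted p under 0.05. The 8 filled symbols are Trp53inp1, Trib1, Btg1, Lcn2, Mt1, Musk and Ankrd1 above 0 and Castor2 below.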

How the data were processed

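RNA of 3 control and 3 knockout samples was hybridised in pairs to 3 Agilent arrays. Labelling started from 0.2 µg of total RNA with Agilent's low-input kit, per the labels' protocols. The deposited intensity columns used are the median brightness of each of 44397 spots and of its local background. Per the file headers, the deposited processed intensities had been corrected by Agilent Feature Extraction 11.5.1.1, while the submitters' processing notes name version 9.3.2.1. The deposited log ratios are on a log10 scale, processed Cy5 divided by processed Cy3. The headers name build mm9. Mean spot signals were not used here.

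Background was corrected by normexp (offset 50) and dyes by loess in limma 3.58.1 (R 4.3.3), with control spots at weight 0. Spots marked as outliers (281 to 319 per array) were left out, and spots of a probe averaged. A probe was kept if well above background in 1 channel on all 3 arrays, with a share of at least 0.5 of its spots. A gene with more than 1 probe was represented by the brightest. Accessions gave a symbol to 27508 of 39429 probes (69.8%) through RefSeq tables of GRCm38.p6, and 11921 stayed unnamed. Levels are on the log2 scale after Aquantile scaling between arrays, which leaves ratios as they are.

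Ratios were tested against 0 with lmFit and eBayes (two-sided), adjusted over 17460 genes, with 481 called. The series' design text calls the replicates biological. The pairing comes from the shared array. The fit was tested on simulated data, where 21 of 214 probes called at an adjusted p under 0.05 (limma) had been given no change. Of 50 probes changed 1.5-fold 44 were recovered, and of 50 changed 2-fold 49. The simulated noise was independent between probes and arrays, with an intensity trend. It held no dye effect of single probes and no difference in cell types. These counts therefore do not give the share of real changes recovered, or of false calls, in the data. The members and lists were chosen with earlier results of these data known, and no list was tested as a set. Named are the 10 genes, Foxo1, and in each list the genes past the threshold or up to 3 of smallest p, with exceptions said in the text. The other FoxO genes were measured as follows: Foxo4 -0.09 ± 0.14, Foxo6 0.39 ± 0.20 (mean log2 ratio ± SD, n = 3), and Foxo3 not tested. The number of arrays limits the precision. Alternatives covered background, signal, normalisation, filter, probe choice, variance model, pairing and each array left out.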

Additional observations from a re-analysis of the deposited data

How the results depend on the processing

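The count of 481 called genes (359 higher, 122 lower) changed with the processing. It was 200 with the deposited log ratios, 1204 (1153 higher, 51 lower) with median centring in place of loess, 830 with scale normalisation between arrays, 55 under a filter that asks for detection in both channels, 746 with no filter on dim probes and 216 when the channels were fitted with no replicate block. It ranged from 49 to 405 with an array left out, and was 49 without replicate 2 and 157 without replicate 3. Fitting the 2 channels separately with the array as a replicate block gave 481 again, and for Cdkn1a the same adjusted p of 0.0401. Among the 10 genes, Cdkn1a kept its direction in all 15 alternatives and its call in 10. Foxo1, which is not one of the 10, kept its direction in 15 and its call in 14, the exception being without replicate 2 (-1.89, adjusted p = 0.106). Cdkn1c was called in 3 of 15. The other 8 were called in none, and their highest and lowest ratios over the alternatives were 0.29 for Sesn2 and -0.54 for Gadd45g. The cause of these changes was not tested. The intervals of the 9 genes not called reached from -0.81 to 0.39. They rest on the spread between 3 arrays of 1 dye orientation after loess, with each gene's variance drawn by limma towards that of all genes. They do not hold the error of dye or normalisation. Cdkn1b had an SD of 0.009 between arrays but a standard error of 0.054 in the fit, so its interval reflects mostly the variance of other genes. For Cdkn1b the interval was -0.39 to -0.11, and the ratio with median centring, -0.03, lay outside it.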
